A study of Saccharomyces cerevisiae with 6 samples.

Results

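The genes described here encode factors that assemble the large (60S) subunit of the cytosolic ribosome in budding yeast. They were chosen by name: a list of 50 symbols was looked up in the symbol column of the authors' deposited fold change table. Of these, 48 matched directly. REA1 is listed there under its synonym MDN1 and was joined through the RefSeq table (assembly R64), and NSA3 is a synonym of CIC1 and adds no gene, which leaves 49 genes out of 5420 tested. Each of the 49 was read by a single probe set. The look-up used names only, but the list itself was drawn up with earlier results of these data known.

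Cells of the wild-type strain DBY746 were grown in SDC medium at pH 6 and 30 °C from an A600 of 0.002 to 2, with myriocin at 300 ng/ml or without it. Myriocin, a fungal compound, blocks serine palmitoyltransferase and with it the entry step of sphingolipid synthesis. Both groups received ethanol to 0.3% from the start, so the control carried the vehicle, and each group held 3 biological replicates, numbered 1 to 3, each on its own single-colour array. The deposited values are log2 signals, and a difference of 1 is a 2-fold change.

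As background, the large subunit begins as a precursor rRNA in the nucleolus. Helicases, scaffold proteins and RNA-binding proteins fold it and trim its internal spacers, and GTPases and a large AAA-type ATPase then remodel the particle in the nucleoplasm. Export factors carry the particle through nuclear pores, and the last factors leave it in the cytoplasm. In growing yeast these genes are known to be expressed together as part of the ribosome biogenesis regulon, which follows nutrient supply and growth rate.

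Median log2 signals over all genes lay between 11.06 and 11.08 on the 6 arrays, and between 95.4% and 95.7% of genes lay above the highest negative control, at 2.07. The lowest value of any assembly factor gene was 8.79, so none was near background. The number of arrays limits the precision. In these bulk cultures, fewer cells expressing a gene and less RNA per cell cannot be told apart.

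How many of these genes were called depended on whether replicate numbers were paired: 6 of 49 passed an adjusted p of 0.05 in limma without pairing, and 21 of 49 (42.9%, against 52.5% of all genes) with replicate number as a block. Without the block, IPI1, RSA4, SSF1, MAK16 and MRT4 fell and DBP3 rose. That is 12.2% of the genes, against 54.4% of all genes tested, where 25.5% were called higher and 28.8% lower. The median log2 fold change of the 49 genes was -0.01, against -0.03 over all genes. The median size of the change, regardless of sign, was 0.18, against 0.37. A change of more than 2-fold was measured in 1 of 49 genes, or 2.04%, against 16.7% of all genes. The 95% interval of the log2 fold change lay within 1 of 0 for 46 of 49 genes (70.8% of all genes) and within 0.5 of 0 for 18 of 49 (35.5% of all genes). The median standard error (SE) of these genes was 0.15, against 0.11 over all genes. Its part in the low count of calls was not tested. No test compared the list with other genes.

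**Figure D1:**
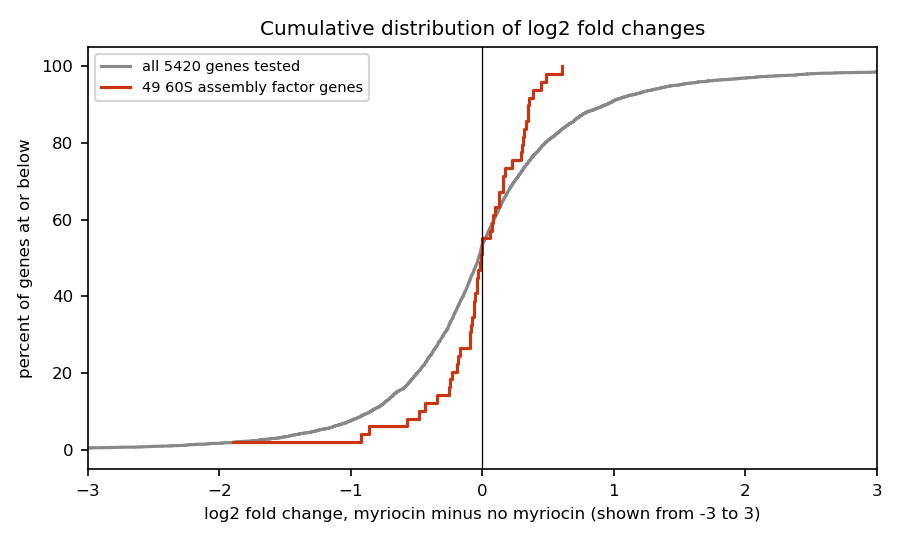
Cumulative share of genes (vertical axis, percent) by log2 fold change, myriocin minus no myriocin (horizontal axis, shown from -3 to 3), for all 5420 genes tested (grey) and the 49 assembly factor genes (red). The red line climbs more steeply, with 1 gene beyond a 2-fold change in either direction.

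The spread of these genes between cultures followed the replicate number. In 41 of 49 genes replicate 3 gave the lowest value of the control group and also the lowest of the myriocin group, while 14.4% of all genes did so. Control replicate 3 lay below the group mean in 48 of 49 genes, with a median deviation of -0.21 on the log2 scale, and myriocin replicate 3 in 44 of 49, with a median deviation of -0.23. Replicate 2 lay below the mean in 0 of 49 genes in the control and 1 of 49 in the myriocin group, with median deviations of 0.14 and 0.15. Over all genes the median deviation of the 6 arrays lay between -0.014 and 0.012. The other 60S assembly genes were lowest in replicate 3 of both groups in 23 of 35 cases, the small-subunit processome genes in 21 of 50, and genes for large-subunit ribosomal proteins in 35 of 71. What the replicate number stands for is not given in the sources used here.

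**Figure D2:**
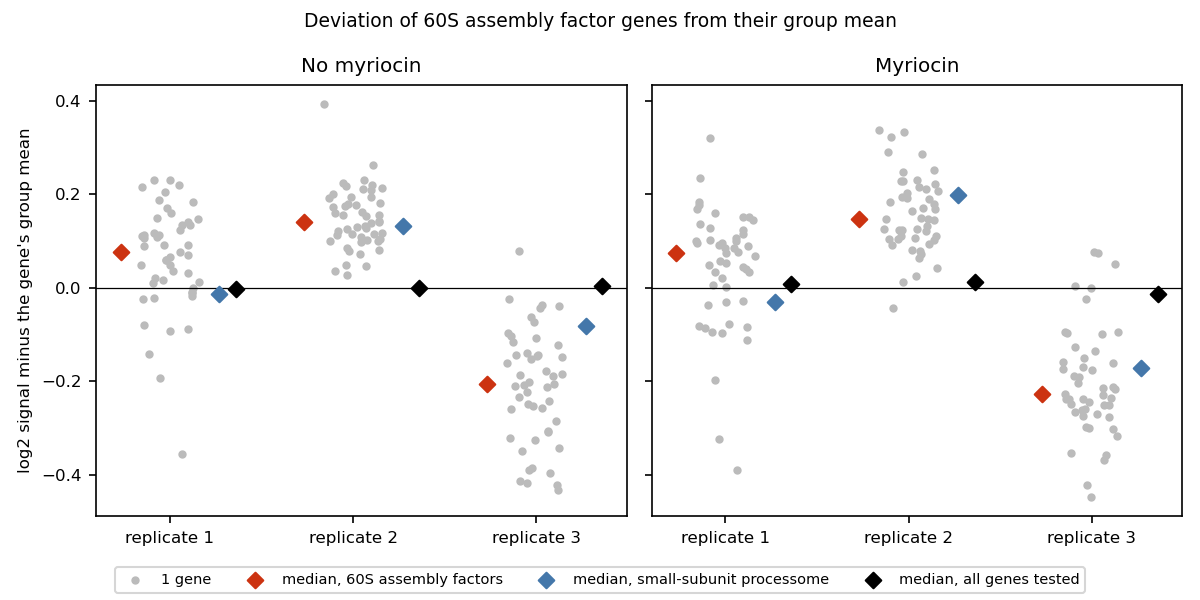
Deviation of each of the 49 assembly factor genes (grey points) from its own group mean, in log2 units, on the 3 arrays of each group, with medians (diamonds) of these genes, of the small-subunit processome genes and of all genes tested. Nearly all grey points of replicate 3 lie below 0 in both groups and those of replicate 2 lie above it, while the median of all genes stays near 0.

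With replicate number as a block in the limma fit, the error of these genes fell and more of them were called. The median SE went from 0.15 to 0.08, and over all genes from 0.11 to 0.09. Of the 21 genes called 12 were higher and 9 lower, against 25.4% and 27.1% of all genes. The 6 genes called without the block were called with it, and 15 were gained. All the gained changes were small, with log2 fold changes between -0.48 for NOP13 and 0.49 for DRS1. The median difference of the 49 genes between myriocin and control cultures of equal number was 0.01, 0.02 and 0.02 for replicates 1, 2 and 3. Without both arrays of replicate 3, 12 of 49 genes were called in the fit without the block, against 41.5% of all genes. Without both arrays of replicate 1 the count was 3 of 49 (40.7% of all genes). Without those of replicate 2 it was 4 of 49 (34.7% of all genes). Calls that rest on the block are named as such below.

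**Figure D3:**
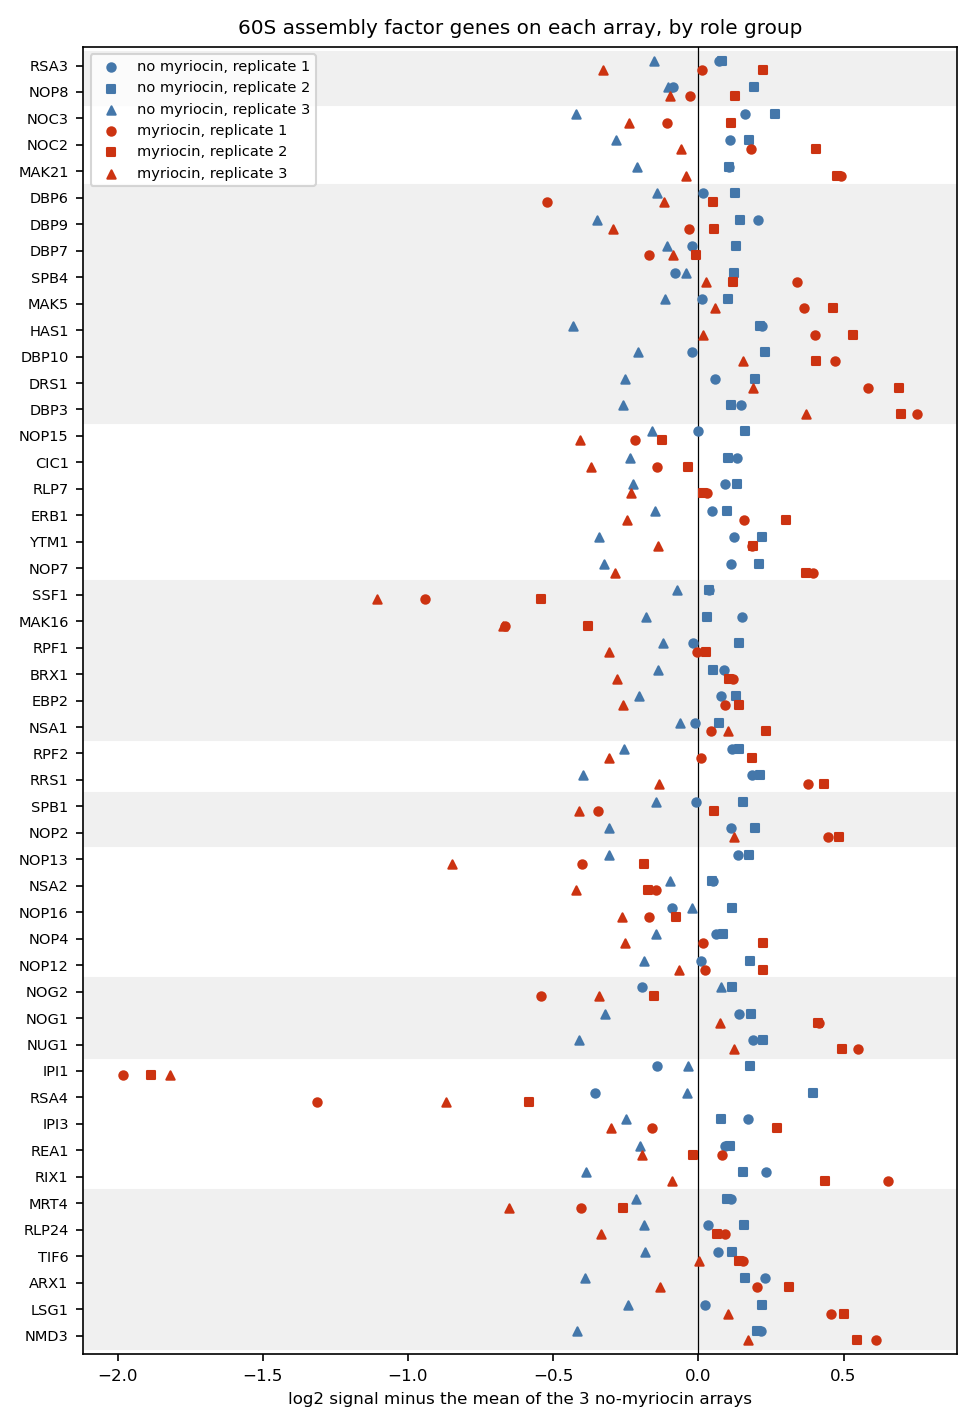
Log2 signal of each assembly factor gene on each array, minus the mean of the 3 control arrays (horizontal axis), with genes in rows by role group (shaded bands), control arrays in blue and myriocin arrays in red, and a marker shape for each replicate number. The triangles of replicate 3 lie to the left of the other markers of their colour in most rows, and IPI1 is the gene whose red points lie farthest from its blue ones.

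The largest change was in the machinery that acts on the particle in the nucleoplasm. IPI1 encodes a subunit of the Rix1 complex, which is needed to process the second internal spacer and recruits the ATPase Rea1. Its log2 signals were 10.63, 10.95 and 10.74 in the control cultures and 8.79, 8.89 and 8.96 with myriocin. The groups lay far apart, and IPI1 fell by 1.89 (SE 0.10, n = 3 per group, limma adjusted p = 0.000129), which is 3.72-fold lower. The genes of its partners were not called lower. RIX1 had signals of 10.67, 10.60 and 10.06 in control and 11.10, 10.88 and 10.35 in myriocin cultures. These groups overlapped, with a log2 fold change of 0.33 (SE 0.24, limma adjusted p = 0.284). The third subunit gene, IPI3, had signals of 10.30, 10.21 and 9.88 in control and 9.97, 10.40 and 9.83 in myriocin cultures, and differed by -0.06 (SE 0.18, limma adjusted p = 0.787). With the block RIX1 was called higher (limma adjusted p = 0.0222). Within each array, the IPI1 signal minus the mean of RIX1 and IPI3 was 0.15, 0.55 and 0.77 in control and -1.74, -1.75 and -1.14 in myriocin cultures. That contrast, chosen after the values were seen, shifted by -2.03 between the groups, with an exact two-sided permutation p of 0.1, the smallest that 3 against 3 arrays can give.

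RSA4, whose product is the substrate that Rea1 pulls from the particle, had signals of 10.19, 10.94 and 10.51 in control and 9.23, 9.96 and 9.67 in myriocin cultures. The groups did not overlap, though both were wide (SD 0.38 and 0.37), and RSA4 fell by 0.92 (SE 0.25, n = 3 per group, limma adjusted p = 0.022). Its call was lost without control replicate 2 (limma adjusted p = 0.0601), myriocin replicate 1 (0.0559), myriocin replicate 3 (0.0591) or both arrays of replicate 3 (0.115), and with the block its adjusted p was 0.00212. REA1 itself, the AAA-type ATPase, stood at -0.04 (log2 fold change, SE 0.12, limma adjusted p = 0.776). Its 95% interval ran from -0.33 to 0.24.

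Among the Brix-domain proteins and their partners, which build the early nucleolar particle, 2 of 6 fell, a share near the 28.8% of all genes called lower. SSF1, a Brix-domain factor of that stage, had signals of 11.003, 11.001 and 10.89 in control and 10.03, 10.43 and 9.86 in myriocin cultures. The groups did not overlap, and SSF1 fell by 0.86 (SE 0.15, n = 3 per group, limma adjusted p = 0.00416). MAK16, which joins the particle with Rpf1, had signals of 11.77, 11.65 and 11.44 in control and 10.95, 11.24 and 10.95 in myriocin cultures. MAK16 fell by 0.57 (SE 0.12, limma adjusted p = 0.00968), in all pairs of equal number, and lost its call without both arrays of replicate 1 (0.0741). Its partner RPF1 stood at -0.09 (SE 0.12). NSA1, found in the same early module, stood at 0.13, and BRX1 and EBP2, which bind each other, at -0.02 and -0.01. None of these 4 was called in either fit.

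SSF1 has a close paralog, SSF2, whose product can do the same work. SSF2 had signals of 10.66, 10.36 and 10.61 in control and 10.23, 10.43 and 10.34 in myriocin cultures. The groups overlapped, with a log2 fold change of -0.21 (SE 0.10, limma adjusted p = 0.134). Within each array, SSF1 minus SSF2 was 0.35, 0.64 and 0.29 in control and -0.21, -0.0018 and -0.48 in myriocin cultures, a shift of -0.65 (exact two-sided permutation p = 0.1, the smallest possible). Cross-hybridisation between the paralogs was not tested.

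DBP3 was the 1 gene of the 49 called higher without the block. It encodes a DEAD-box RNA helicase that helps cleavage in the first internal spacer. Its signals were 12.29, 12.26 and 11.88 in control and 12.90, 12.84 and 12.51 in myriocin cultures. Every myriocin value lay above every control value, and DBP3 rose by 0.61 (SE 0.15, n = 3 per group, limma adjusted p = 0.017), or 1.52-fold. Its call was lost without myriocin replicate 1 (limma adjusted p = 0.0541) or myriocin replicate 2 (0.0522), and without both arrays of replicate 1 (0.0618) or 2 (0.0921), and with the block its adjusted p was 0.00408.

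None of the other helicase genes passed that fit. DRS1, needed for large-subunit assembly, had signals of 11.89, 12.02 and 11.57 in control and 12.41, 12.52 and 12.02 in myriocin cultures, and myriocin replicate 3 alone lay within the control range. Its log2 fold change was 0.49 (SE 0.17, limma adjusted p = 0.0525, or 0.00704 with the block). DBP10, HAS1 and MAK5 had log2 fold changes of 0.34, 0.32 and 0.29 and were called with the block (limma adjusted p = 0.0371, 0.0373 and 0.0371). DBP6 of the earliest particles, DBP7, DBP9 and SPB4 had log2 fold changes of -0.20, -0.09, -0.09 and 0.16 and were called in neither fit. With the block 5 of 9 helicase genes were called higher and none lower, where 25.4% and 27.1% of all genes were, and the group was not tested as such.

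The 3 GTPase genes had log2 fold changes of both signs, and none was called without the block. Differences among them were not tested. NUG1, a GTPase of the nuclear particle, had signals of 11.99, 12.02 and 11.39 in control and 12.35, 12.29 and 11.92 in myriocin cultures. Each myriocin culture exceeded the control culture of its number, but the groups overlapped through replicate 3. The log2 fold change of NUG1 was 0.39 (SE 0.21, limma adjusted p = 0.154, or 0.0222 with the block). NOG1, which acts at the tunnel exit of the particle, stood at 0.30 (limma adjusted p = 0.176, or 0.0306 with the block). NOG2, which holds the site that the export adaptor Nmd3 later takes, went the other way, with signals of 13.18, 13.49 and 13.46 in control and 12.83, 13.22 and 13.03 in myriocin cultures. Its log2 fold change was -0.35 (SE 0.13, limma adjusted p = 0.0682, or 0.0202 with the block).

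Factors of export and of the cytoplasm also had log2 fold changes of both signs, with differences among them not tested. MRT4, the placeholder for the stalk protein P0, had signals of 14.02, 14.01 and 13.70 in control and 13.51, 13.65 and 13.26 in myriocin cultures. The groups were separated by a small gap, and MRT4 fell by 0.44 (SE 0.14, n = 3 per group, limma adjusted p = 0.0366). The call of MRT4 was lost without control replicate 1 (limma adjusted p = 0.101), control replicate 2 (0.112), myriocin replicate 1 (0.0763) or myriocin replicate 3 (0.0946), and with the block its adjusted p was 0.0108. RPP0, the gene of P0 itself, stood at -0.17 (SE 0.07, limma adjusted p = 0.0855). Within arrays, MRT4 minus RPP0 shifted by -0.27 (exact two-sided permutation p = 0.2).

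NMD3, the adaptor that links the particle to the exportin Crm1, had signals of 12.56, 12.54 and 11.93 in control and 12.96, 12.89 and 12.51 in myriocin cultures. Its log2 fold change was 0.44 (SE 0.21, limma adjusted p = 0.118, or 0.0149 with the block). LSG1, the cytoplasmic GTPase that releases Nmd3, stood at 0.35 (SE 0.16, limma adjusted p = 0.104, or 0.019 with the block). TIF6, which keeps the subunits from joining too early, and ARX1, a further export factor, had log2 fold changes of 0.10 (SE 0.10) and 0.13 (SE 0.20) and were called in neither fit.

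RLP24 and RLP7 resemble ribosomal proteins, and Rlp24 holds the place of Rpl24 until the cytoplasm. RLP24 had signals of 13.04, 13.17 and 12.82 in control and 13.10, 13.08 and 12.68 in myriocin cultures, with a log2 fold change of -0.06 (SE 0.15, limma adjusted p = 0.763). The ribosomal protein genes RPL24A and RPL24B fell by 0.26 and 0.24 (SE 0.06 for both, limma adjusted p = 0.0174 and 0.0186). RLP24 minus the mean of both shifted by 0.19 within arrays (exact two-sided permutation p = 0.3). RLP7 stood at -0.06 (SE 0.13, limma adjusted p = 0.706), and RPL7A and RPL7B share a probe set, whose log2 fold change was -0.21 (SE 0.06). Once arrays were scaled to the hybridisation controls, RPL24A and RPL24B turned to 0.06 and 0.08.

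The remaining groups held genes that were not called without the block. In the complex of Nop7, Erb1 and Ytm1, which shapes the early particle and is later stripped by Rea1, NOP7, ERB1 and YTM1 had log2 fold changes of 0.16, 0.07 and 0.08. Of the factors bound near the second internal spacer, CIC1 and NOP15 stood at -0.18 and -0.25, and NOP15 was called lower with the block (limma adjusted p = 0.0385). The Noc proteins accompany the particle through the nucleus, and MAK21, NOC2 and NOC3 stood at 0.31, 0.17 and -0.08, with MAK21 called higher with the block (limma adjusted p = 0.037). NOP8 and RSA3, from the complex of the earliest particles, stood at 0.0014 and -0.03, with intervals of -0.27 to 0.27 and -0.41 to 0.34.

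RPF2 and RRS1 bring the 5S rRNA particle into the subunit, and their log2 fold changes were -0.04 and 0.22, with intervals of -0.44 to 0.36 and -0.32 to 0.77. NOP2 and SPB1 are rRNA methyltransferases. NOP2 stood at 0.35 (SE 0.17, limma adjusted p = 0.118, or 0.0186 with the block) and SPB1 at -0.23 (SE 0.15, limma adjusted p = 0.222). Among RNA-binding and other nucleolar factors, NOP13 stood at -0.48 (SE 0.21, limma adjusted p = 0.0944, or 0.01 with the block). NSA2 stood at -0.25 (limma adjusted p = 0.0776, or 0.0458 with the block), and its groups did not overlap. NOP16, NOP4 and NOP12 stood at -0.17, -0.0049 and 0.06 and were called in neither fit. In all, the groups did not overlap for 7 of 49 genes, 1 higher and 6 lower, against 30.6% higher and 35.8% lower, or 66.4%, of all genes. Myriocin cultures exceeded the control of equal number in all 3 pairs for 18 of 49 genes (35.8% of all genes) and lay below it in all 3 for 13 (41.4% of all genes).

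**Figure D4:**
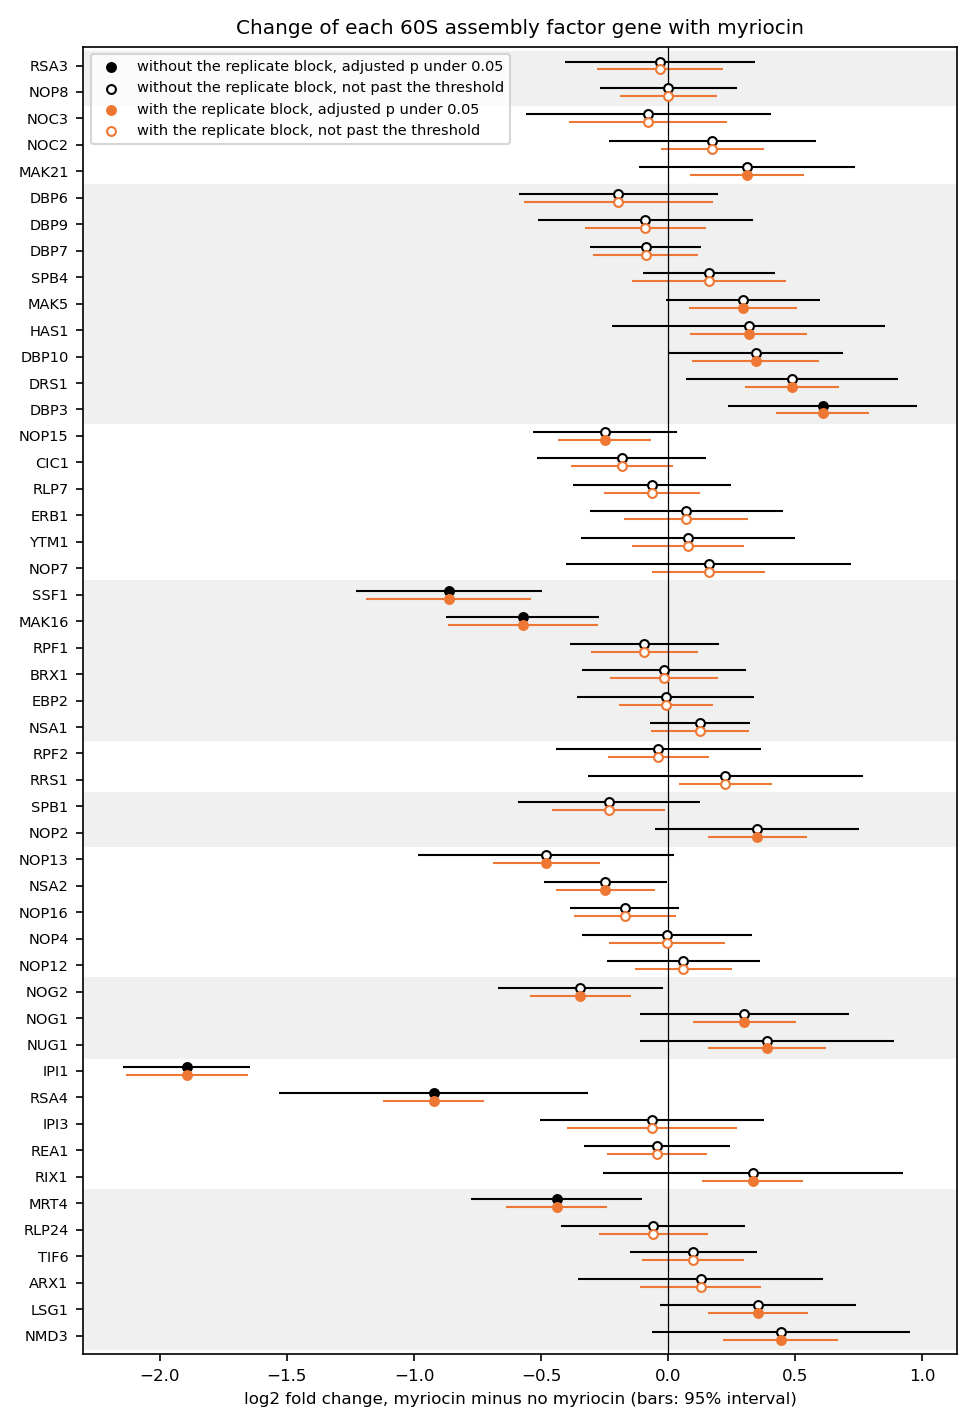
Log2 fold change of each assembly factor gene, myriocin minus no myriocin (points), with its 95% interval (bars), from limma without (black) and with (orange) replicate number as a block. Filled points passed an adjusted p of 0.05: 6 genes in black and 21 in orange, with shorter orange bars in most rows.

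The scale of the arrays bears on small changes. The 26 bacterial and phage hybridisation controls above background had a median log2 fold change of -0.25, and 10 of them were lower by limma. When arrays were scaled to these controls, the median of all genes moved from -0.03 to 0.29 and that of the 49 genes from -0.01 to 0.31. On that scale 18 of 49 were called higher and 3 lower, against 39.9% and 12.0% of all genes. IPI1, RSA4 and SSF1 were the 3 lower ones, at -1.58, -0.61 and -0.55, while MAK16 and MRT4 lost their calls (limma adjusted p = 0.158 and 0.508). Directions given here are therefore relative to the rest of the genes.

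Probe sets for the rRNAs of the large subunit, which are controls on this array, were lower with myriocin. Of 8 probe sets for 25S rRNA, 7 were lower by limma and none higher, with log2 fold changes from -2.31 to 0.04 and a median of -1.52. The small subunit's 18S rRNA had 8 of 8 probe sets lower, with a median of -1.49. The labelling kit primes from poly(A) tails, which mature rRNA lacks. The part of these values in the results above was not tested.

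Other genes of the pathway were taken from a list of 35, drawn up, like the 49, with earlier results of these data known. Without the block 9 of 35 passed, 2 higher and 7 lower. That is 25.7%, against 54.4% of all genes, where 25.5% were higher and 28.8% lower. The median fold change was -0.07 on the log2 scale, against -0.03 over all genes. The genes of the enzyme that cuts the second internal spacer both fell. GRC3, its kinase subunit, had signals of 10.05, 10.13 and 9.81 in control and 8.47, 9.04 and 8.68 in myriocin cultures and fell by 1.27 (SE 0.16, n = 3 per group, limma adjusted p = 0.0014). LAS1, its nuclease subunit, fell by 0.51 (SE 0.10, limma adjusted p = 0.0073).

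Tif6 is released in the cytoplasm by Sdo1 and a GTPase, and the genes of the pair moved apart. SDO1 had signals of 11.17, 11.12 and 11.08 in control and 9.90, 10.31 and 10.05 in myriocin cultures and fell by 1.04 (SE 0.11, n = 3 per group, limma adjusted p = 0.000834). RIA1, also called EFL1, the GTPase gene, rose by 0.26 (SE 0.09, limma adjusted p = 0.0471) and lost its call with the block (0.0969), and when control replicate 1 (0.133), control replicate 2 (0.132), myriocin replicate 1 (0.116) or myriocin replicate 2 (0.125) was dropped.

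RRP14 and CGR1, early nucleolar factors, fell by 0.71 and 0.72 (limma adjusted p = 0.0112 and 0.0207). REI1, which frees Arx1 in the cytoplasm, fell by 0.56 (limma adjusted p = 0.0382), and NOP53, which brings the exosome to the particle, fell by 0.42 (limma adjusted p = 0.025). BUD20, an export factor, rose by 0.49 (SE 0.15, limma adjusted p = 0.0343). Leaving out a single array ended some of these calls. CGR1 lost its call when control replicate 2 was dropped (limma adjusted p = 0.0695), and REI1 when any array other than control replicate 3 or myriocin replicate 2 was dropped (0.0758 to 0.111). NOP53 lost its call on dropping 3 different arrays (0.053 to 0.0728) and BUD20 on dropping 4 (0.0521 to 0.0965). Once arrays were scaled to the hybridisation controls, 8 of 35 were called higher and 2 lower, against 39.9% and 12.0% of all genes. The 2 lower ones were GRC3 and SDO1.

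The small-subunit processome, which builds the other subunit in the same nucleolus, was set beside these genes. Of its 50 genes, 2 were called higher and 17 lower, or 38% in all. Among all genes 25.5% were called higher and 28.8% lower, or 54.4%. The log2 fold changes of the 50 had a median of -0.27 and a range from -1.70 to 0.59. With the block 4 were higher and 23 lower, against 25.4% and 27.1% of all genes. The 49 large-subunit factors had 1 higher and 5 lower, or 12 higher and 9 lower with the block. The difference between the lists was not tested. Of 71 genes for large-subunit ribosomal proteins, 30 were called lower and none higher, or 42.3%, and 20 lower with the block (28.2%). The share of all genes called lower was 28.8%, or 27.1% with the block. The median of the 71 genes was -0.19, which turned to 0.13 once arrays were scaled to the hybridisation controls.

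Genes for regulators of ribosome gene transcription were listed under 12 names standing for 11 genes, of which 3 rose and 2 fell. That is 45.5% called, against 54.4% of all genes. FHL1 and CRF1 lay near the negative controls. SCH9, a kinase downstream of the TORC1 complex, rose by 0.99 (SE 0.15, limma adjusted p = 0.00238), DOT6, a repressor of ribosome biogenesis genes, by 0.75 (SE 0.08, limma adjusted p = 0.000772), and SFP1, an activator of these genes, by 0.42 (SE 0.08, limma adjusted p = 0.00611). RAP1, which binds ribosomal protein gene promoters, fell by 0.89 (SE 0.24, limma adjusted p = 0.0218), and the general regulatory factor gene ABF1 by 0.37 (SE 0.11, limma adjusted p = 0.0299). On the scale of the hybridisation controls RAP1 and ABF1 lost their calls (limma adjusted p = 0.0726 and 0.818). The repressor genes TOD6 and STB3 were not called, with log2 fold changes of -0.19 and -0.26 (limma adjusted p = 0.377 and 0.142).

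The longer of the authors' deposited lists holds 5 of the 49 genes: IPI1, RSA4, SSF1, MAK16 and DBP3. That list covers a majority of the 5900 probe sets on the array, so 5 of 49 is a smaller share than that of the whole array. The difference in share was not tested. In the authors' deposited table the ratio of myriocin to control was 0.269 for IPI1, 0.528 for RSA4, 0.55 for SSF1, 0.672 for MAK16 and 1.52 for DBP3. MRT4 had a ratio of 0.738 and a p-value of 0.0486 in the authors' deposited table and is not on that list.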

How the data were processed

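Values were deposited as log2 signals. Per the submitters' processing notes the authors used Partek, with its version, its role and the normalisation method not given in the sources used here. The log2 scale was checked against the authors' deposited ratios, whose log2 matched the difference between group means to within 8.48e-05. P-values and fold ratios were deposited for each probe set, per the file headers.

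The array held 5900 probe sets: 5445 for a single gene, 79 for several, 184 controls and 192 with no name here. Platform annotation, brought up to date through RefSeq (assembly R64), supplied names first and the authors' symbol column second. The probe set with the highest mean over the 6 arrays stood for a gene. The 5420 genes were fitted in limma 3.58.1 (R 4.3.3; lmFit, then eBayes; two-sided; Benjamini-Hochberg adjustment over all genes at 0.05), without covariates or a signal filter. The fit without the block was tested on simulated data. Log2 changes of 0.5, 1 and 2 were recovered in 21 of 50, 88 of 100 and 47 of 50 genes. Of 5220 unchanged genes, 11 were called. Most of the 5420 genes were thus unchanged there, whereas 54.4% of all genes were called in the real data. Whether the recovery and the false calls carry over to the real data was not tested. The simulated noise was independent between arrays, without the shift by replicate number seen in the real data.

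The labels number the replicates of both groups 1 to 3. Across genes, arrays of equal number deviated together from their group means (r = 0.169, 0.233 and 0.175), all above 0.1, so the numbers were taken to pair the samples, and the blocked value is printed where it changes a call. The pairing comes from the data; the labels give only the numbers.

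The genes, the lists and the alternatives were chosen with earlier results of these data known. The rule for named genes takes each called gene, the 5 highest and 5 lowest, those with a counterpart on the ribosome and the called genes of the wider list; the others are named by role group. The list of large-subunit ribosomal proteins was added after the values were seen. Sequences are not used here, and coordinates served only to order the genes along the chromosomes. Figures were drawn with matplotlib 3.10.9.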

Additional observations from a re-analysis of the deposited data

How the results depend on the processing

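For the 49 genes, 6 calls (1 higher, 5 lower) became 21 (12 higher, 9 lower) with the replicate block and 21 (18 higher, 3 lower) with arrays scaled to the hybridisation controls, where the median moved to 0.306. Higher calls numbered 2 with equal array medians, with the dimmest 25% of genes left out, and with an intensity trend and robust variance. The fit with that trend also called NOG2 lower, which made 6 lower calls, and it called 56.5% of all genes. Intervals within 0.5 of 0 numbered 29 with the block (1928 of 5420 over all genes) and 8 with the hybridisation scaling. Of the 35 other genes of the pathway, 1 was called higher with the block or the trend, and 8 were higher and 2 lower with that scaling. Leaving out 1 array, or both arrays of a replicate number (added after seeing the data), gave 3 to 12 calls, 0 to 7 higher and 3 to 7 lower, medians from -0.0932 to 0.116 and 8 to 26 intervals within 0.5 of 0. For the wider list it gave 4 to 9 calls, 0 to 2 higher and 4 to 7 lower. Over all genes the share called in these fits also fell, from 54.4% with all arrays. It lay between 34.7% (without replicate 2) and 48.9% (without control replicate 3). RLP24 and RLP7, called in no setting, turned to 0.257 and 0.253 with the hybridisation scaling; leaving out 1 array gave -0.153 to 0.0794 for RLP24 and -0.175 to 0.0225 for RLP7, above 0 without control replicate 2 (0.0193 and 0.00338) or myriocin replicate 3. For 22 genes named one by one, 277 of 352 gene and setting combinations kept direction and call, 51 lost the call, 18 gained it and 6 turned sign. Quantile normalisation changed none of the calls of the 49 genes. Averaging probe sets per gene could not change their values, since each was read by a single probe set. In the wider list the block also called ECM1, ALB1 and NOP6 lower; it changed no call of a named gene beyond those given beside it. The cause of these changes was not tested. The 3 arrays per group limit the precision.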

Other observations

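On the RefSeq gene order (assembly R64), 4 of the assembly factor genes lie directly beside a gene of the small-subunit processome, and no pair of the 49 genes lies side by side. NSA2 (YER126C) and LCP5 (YER127W), on opposite strands by their systematic names, had log2 fold changes of -0.25 (SE 0.10) and -1.68 (SE 0.28), and LCP5 was called lower (limma adjusted p = 0.00347). DBP8 (YHR169W), upstream of NMD3 (YHR170W) on the same strand, had a log2 fold change of -1.70 (SE 0.23, limma adjusted p = 0.00154), against 0.44 for NMD3. UTP9 (YHR196W), beside RIX1 (YHR197W), stood at -0.66 (SE 0.10, limma adjusted p = 0.00259), against 0.33 for RIX1. RSA3 and UTP13 stood at -0.03 and 0.20, with neither called. The difference within a pair was not tested.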
